A study of Mus musculus with 8 samples.

Results

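The BCL2 family decides whether a cell under stress opens its outer mitochondrial membrane and dies. BH3-only proteins (Bim, Puma, Noxa, Bid and Bad) sense damage or lost growth factor signals, the effectors Bax and Bak form the pore, and the pro-survival proteins Bcl-2, Bcl-xL and Mcl-1 hold both in check. FoxO factors are known activators of the genes for Bim (Bcl2l11) and Puma (Bbc3) when growth factor signalling through Akt falls, and much of the family is also set by splicing, phosphorylation and protein turnover, which RNA does not show. The 10 genes Bcl2l11, Bbc3, Pmaip1, Bid, Bad, Bax, Bak1, Bcl2, Bcl2l1 and Mcl1 were chosen by name, and every probe set that the platform annotation gives to 1 of them alone was followed. That gave 29 probe sets for 9 genes, out of 34945 probe sets for 18193 genes that carry 1 symbol. Bax was not analysed here.

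RNA came from secondary neurospheres, free-floating spheres that forebrain stem and progenitor cells form after replating, of FoxO3 null mutant and wild type mice of strain FVB/N. The medium of both genotypes held bFGF and EGF, each at 20 ng/ml, and spheres were taken on day 6 from cells plated at 50000 per ml. Each genotype has 4 Affymetrix arrays, 2 in set 1 and 2 in set 2. The age of the mice, the deleted stretch of Foxo3, the meaning of a set and whether arrays are separate cultures or pooled animals are not given in the sources used here, so the p-values cover the spread of these arrays alone, and that spread may be technical. Every sphere was in growth factor medium, where Akt is known to hold FoxO factors out of the nucleus. Where FoxO3 lay in these cells was not measured here.

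Foxo3 itself fell by 1.17 on the log2 scale at its brightest probe set, 1434831_a_at (adjusted p = 0.000649). A further Foxo3 probe set fell by 1.07 (adjusted p = 0.00210), and the dimmest gave 0.33 (adjusted p = 0.110). All 11 measured progenitor markers lay above the median level of the 45037 probe sets tested. Of the markers of other cells, 1 of 8 microglial, 2 of 6 endothelial and 0 of 6 fibroblast and pericyte genes did. Summed over the 8 microglial genes, the log2 level ranged from 8.38 to 8.53 in wild type and from 8.37 to 8.59 in null arrays. Of the glial and neuronal markers, 6 of 6 astrocyte, 6 of 6 oligodendrocyte and 4 of 8 neuron genes lay above the median. Probe sets differ in affinity, so these counts describe signal and do not show which cells were present. Summed log2 levels of the oligodendrocyte genes were 13.32 to 14.76 in wild type and 13.56 to 14.80 in null arrays. Of the 12 glial genes 3 fell, where 1.12% of the 18193 genes passed by their brightest probe set. Slc1a2, a glutamate transporter, fell by 0.84 and Pdgfra, the receptor of oligodendrocyte precursors, by 0.67 (adjusted p = 0.000649 and 0.0108). Sox10, a factor of that lineage, fell by 0.27 (adjusted p = 0.0473). Only 1 of 5 probe sets of Slc1a2 passed, and 1 of 3 each of Pdgfra and Sox10. The myelin genes Mbp, Mag and Mog had differences of 0.44, 0.38 and 0.24 that did not pass. These were 0.87, 0.81 and 0.32 in set 1 and 0.015, -0.058 and 0.17 in set 2. Cnp, another myelin gene of the list, gave -0.077, and the median of the oligodendrocyte list was 0.082. The part of these genes in the members' values was not tested. In bulk RNA, fewer cells of a type and less RNA per cell cannot be told apart. The mean of 3 Y-linked genes was lower in the null arrays of each set (7.90 and 8.09 against 8.35 and 8.18 in set 1, and 6.88 and 7.10 against 7.80 and 7.66 in set 2). With this mean as a covariate 0 of the 29 probe sets passed and 10 of them turned their sign. The mean parts the genotypes within each set, so the covariate overlaps with genotype, and 0 of all 45037 probe sets passed with it. The covariate values therefore cannot show its part in the differences given next, which was not tested otherwise.

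Promoter sequence is shown first because Bcl2l11 and Bbc3 are the members named as FoxO targets. Windows from 250 bases before to 50 after a RefSeq (GRCm38.p6) transcription start were taken for 9 of the 10 genes, 15 in all. No window of Pmaip1 was searched here, so its promoter was not tested. The FoxO core motif spelled GTAAACA, searched on both strands with no other motif beside it, was in 1 window each of Bcl2l11 and Bbc3 and thus in 2 of the 15. Among all 32851 windows of that length 3.65% hold it. In Bcl2l11 it ended 220 bases before the gene's first start, and the 250 bases before that start (chr2:128125788-128126037, plus strand) are printed with the motif in capitals. In Bbc3 it was read on the other strand, 160 bases before a later start, and 30 bases around it are given (chr7:16310083-16310112, plus strand).
Bcl2l11: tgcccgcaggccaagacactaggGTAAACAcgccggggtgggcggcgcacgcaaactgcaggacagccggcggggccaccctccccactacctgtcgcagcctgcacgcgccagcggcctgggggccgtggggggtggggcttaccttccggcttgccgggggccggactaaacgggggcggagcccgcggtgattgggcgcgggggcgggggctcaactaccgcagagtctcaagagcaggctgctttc
Bbc3: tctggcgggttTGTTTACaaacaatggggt
A match is a run of letters and no measured binding site.

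No member of the family passed the test for a change with FoxO3. In limma with set as a term, 0 of the 29 probe sets passed at an adjusted p under 0.05, with adjusted p from 0.148 to 0.997, where 0.802% of all 45037 probe sets passed (0.586% lower and 0.215% higher in null). At an unadjusted p under 0.05 there were 7 of 29 (24.1%), all higher in null arrays, against 12.7% of all probe sets. These 7 were 4 of Bcl2, 2 of Mcl1 and 1 of Bcl2l11, and probe sets of 1 gene are no independent evidence. The median log2 difference (null minus wild type, as for every difference that follows) was 0.043 over the 29 probe sets and 0.0098 over all. The largest member differences in either direction were 1.22-fold higher (Bcl2 1440770_at, level percentile 42.0) and 0.857 of wild type (Bbc3, level percentile 71.0). Of the 29 probe sets 25 lay above the median level of all. The dimmest were Bid 1447873_x_at and Bcl2l1 1426050_at, at level percentiles 16.1 and 18.1, where little change could be seen. With 1 probe set per gene, the brightest by mean over the 8 arrays, 0 of 9 genes passed, where 1.60% of 18193 genes did.

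**Figure D1:**
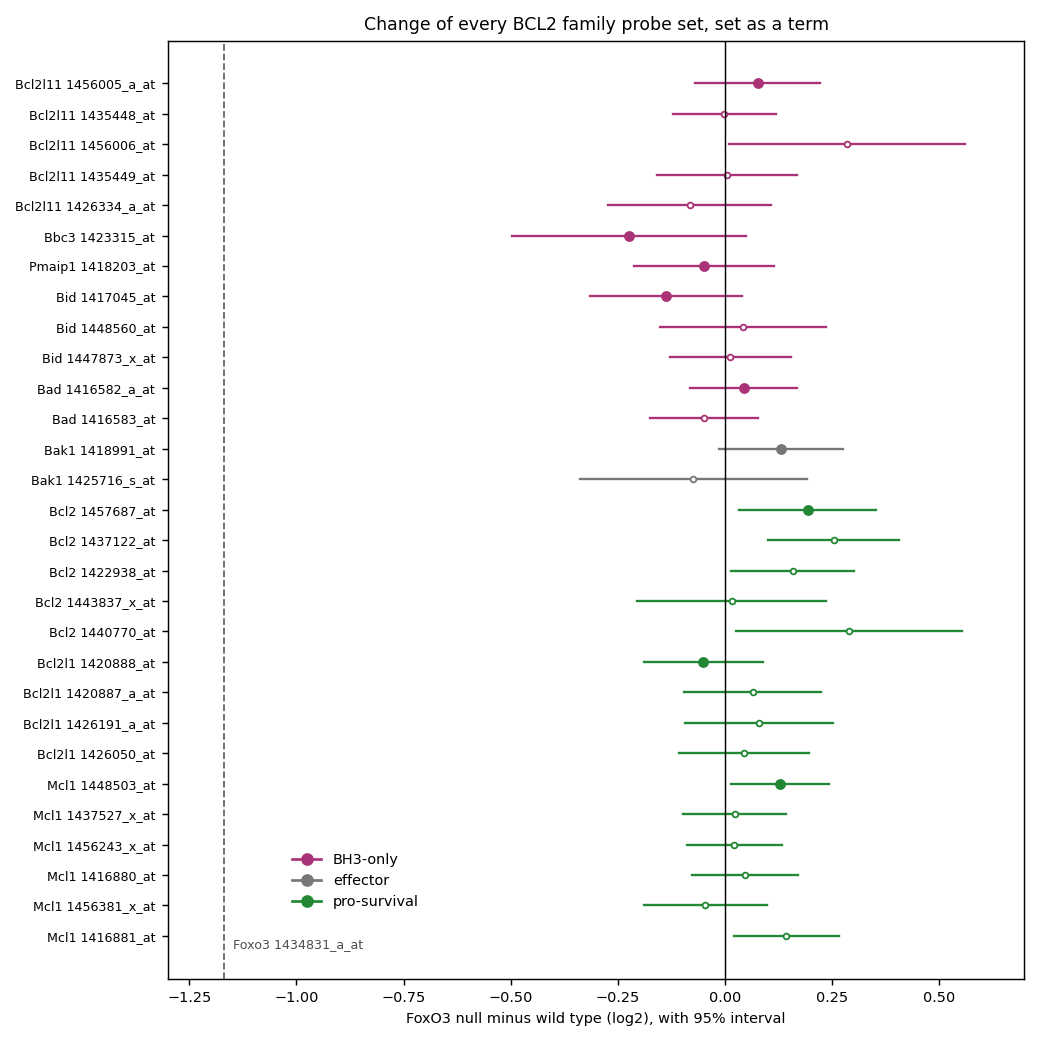
Log2 difference of each of the 29 probe sets (points, filled for the brightest of a gene) with its 95% interval from limma, set as a term, coloured by role. The dashed line marks Foxo3 at -1.17, and all intervals lie between -0.50 and 0.56.

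Bcl2l11 encodes Bim, the BH3-only protein that binds all pro-survival members. Its brightest probe set, 1456005_a_at, read 9.30 and 9.52 in wild type and 9.42 and 9.55 in null arrays of set 1. In set 2 it read 8.89 and 8.88 in wild type and 8.89 and 9.03 in null arrays. The genotypes overlapped in set 1, and in set 2 both null arrays lay just above both wild type arrays. The difference was 0.077 ± 0.066 (SE; adjusted p = 0.707), with a 95% interval from -0.069 to 0.22.

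The other 4 probe sets of Bcl2l11 did not pass either, and they did not share a sign. For 1435448_at the difference was -0.0010 (interval -0.12 to 0.12), and for 1435449_at 0.0059 (-0.16 to 0.17). The dimmest, 1426334_a_at, gave -0.081 (-0.27 to 0.11). The 1 that stood out was 1456006_at, at the 55.8th percentile of level. It read 6.56 and 6.38 in wild type against 7.13 and 6.93 in null arrays of set 1. In set 2 the readings were 6.45 and 6.80 in wild type against 6.76 and 6.51 in null arrays. The null arrays were the higher pair in set 1 and overlapped wild type in set 2. Over both sets the difference was 0.29 ± 0.12 (SE; adjusted p = 0.376; interval 0.0099 to 0.56). The step from 0.56 in set 1 to 0.013 in set 2 did not pass as an interaction (adjusted p = 0.530). With the Y-linked covariate the difference was 0.49 (adjusted p = 0.814).

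Bbc3 encodes Puma, the BH3-only protein also switched on by p53, and has 1 probe set, 1423315_at. In set 1 it read 7.99 and 7.87 in wild type and 7.91 and 8.14 in null arrays. In set 2 wild type read 8.69 and 8.45, and the null arrays 8.04 and 8.02. The 2 wild type arrays of set 2 were the high pair, and the other 6 arrays lay between 7.87 and 8.14. The difference was -0.22 ± 0.12 (SE; adjusted p = 0.504; interval -0.50 to 0.049). By set it was 0.099 in set 1 and -0.55 in set 2 (adjusted p = 0.0997 within set 2). The interaction had the smallest p of the 29 probe sets (-0.64, adjusted p = 0.264), and did not pass.

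Side by side, the 6 probe sets of Bcl2l11 and Bbc3 had a median difference of 0.0025, and the 23 of the other members 0.045. In both groups 0 probe sets passed, and 3 of the 6 against 6 of the 23 had a negative difference, where 45.3% of all probe sets did. Of the 6, 5 are of Bcl2l11, so their median mostly describes that gene and not Bbc3, which gave -0.22.

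The RNAs of the other BH3-only proteins, Noxa, Bid and Bad, did not pass at any of their 6 probe sets. At the brightest one of each gene the pairs overlapped in set 1 and were apart in set 2, with null lower for Pmaip1 and Bid and higher for Bad. Pmaip1, the p53-induced gene of Noxa, read 8.63 and 8.56 in wild type and 8.44 and 8.76 in null arrays of set 1, and 8.88 and 8.80 against 8.70 and 8.78 in set 2. Its difference was -0.048 ± 0.074 (SE; adjusted p = 0.861). Bid, the BH3-only protein that caspase-8 cleaves, gave -0.14 ± 0.080 at its brightest probe set, 1417045_at (adjusted p = 0.536), and 0.043 and 0.013 at its other 2. Bad, which Akt phosphorylates in growth factor medium, gave 0.045 at 1416582_a_at and -0.048 at 1416583_at (adjusted p = 0.820 and 0.808). Bak1, the gene of the effector Bak, gave 0.13 ± 0.065 at 1418991_at, where the null pair lay above the wild type pair in each set (adjusted p = 0.445). Its dimmer probe set 1425716_s_at gave -0.073 ± 0.12, with opposite signs in the sets.

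**Figure D2:**
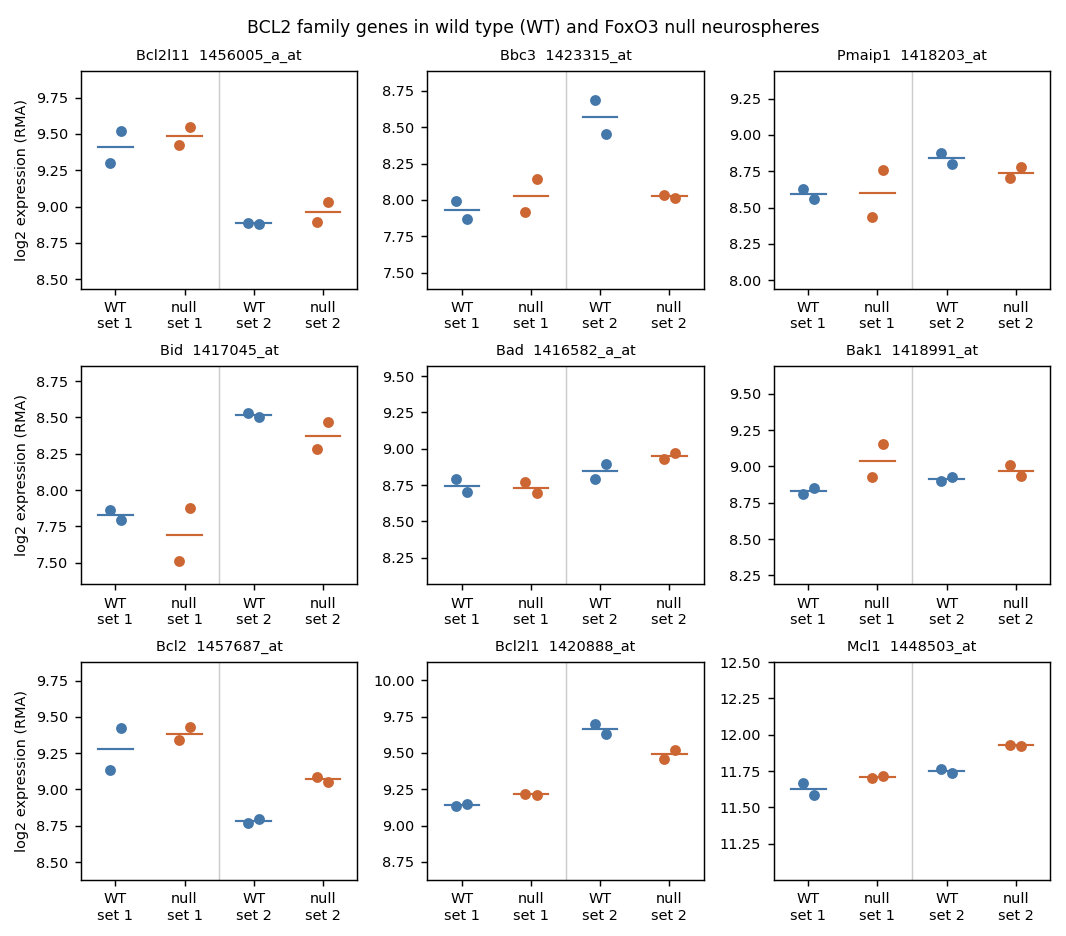
Log2 expression of the brightest probe set of each of the 9 genes, 1 point per array, by genotype and set, with lines at the mean of each pair. Every panel spans the same log2 range. In Bbc3 the wild type pair of set 2 lies above all other arrays. In Bcl2l11, Bid, Bcl2 and Bcl2l1 the shift between sets exceeds the genotype difference over both sets.

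The 3 pro-survival genes hold 15 of the 29 probe sets, and 13 of these 15 had a positive difference, with a median of 0.065. The other 2 (13.3%) were negative, against 45.3% of all probe sets. Probe sets of 1 gene are no independent evidence, and the brightest of Bcl2l1 was negative (-0.050). Bcl2, whose product guards neurons and progenitors against Bim and Puma, was positive at 5 of 5 probe sets and was the only member gene with over 1 probe set for which all agreed. Its smallest p was at 1437122_at. There the wild type arrays read 7.68 and 7.92 in set 1 and 7.50 and 7.60 in set 2. The null arrays read 8.05 and 8.18 in set 1 and 7.78 and 7.71 in set 2. Both null arrays exceeded both wild type arrays within each set, though not across sets. The difference was 0.25 ± 0.069 (SE; adjusted p = 0.148; interval 0.10 to 0.41), or 0.32 in set 1 and 0.19 in set 2. It passed in 1 of the alternatives run, a random block of set and genotype (adjusted p = 0.0416). Under that block far more of all probe sets passed than in the main model, so the pass does not set Bcl2 apart. The counts are given in the closing section.

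The brightest Bcl2 probe set, 1457687_at, read 9.14 and 9.42 in wild type and 9.34 and 9.43 in null arrays of set 1. In set 2 it read 8.77 and 8.80 in wild type and 9.09 and 9.05 in null arrays. The pairs overlapped in set 1 and were apart in set 2. The difference was 0.19 ± 0.072 (SE; adjusted p = 0.294). At 1422938_at and 1440770_at the differences were 0.16 and 0.29 (adjusted p = 0.340 and 0.344), and at 1443837_x_at 0.017. With the Y-linked covariate the Bcl2 differences were 0.014 at 1457687_at, 0.081 at 1422938_at, 0.056 at 1440770_at and 0.081 at 1443837_x_at, and 0.27 at 1437122_at.

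Mcl1, the gene of a short-lived survival protein that neural progenitors depend on, has 6 probe sets, all among the brightest of the family (87.4th to 96.8th percentile). At 1448503_at the wild type arrays read 11.67 and 11.58 in set 1 and 11.77 and 11.73 in set 2. The null arrays read 11.70 and 11.72 in set 1 and 11.93 and 11.92 in set 2. The null pair was higher in each set, by 0.13 ± 0.052 overall (SE; adjusted p = 0.326). The other probe set with an unadjusted p under 0.05, 1416881_at, gave 0.14 ± 0.055 (adjusted p = 0.312), and the remaining 4 lay between -0.045 and 0.048. Between the sets, the 3 Mcl1 probe sets with the suffix _x_at, which marks probes that may also match other sequences, were lower in set 2 by 0.23 to 0.38, while the 3 without it were higher by 0.15 to 0.36. Of these 6 set differences 5 passed.

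Bcl2l1, the gene of Bcl-xL, went both ways. Its brightest probe set, 1420888_at, read 9.14 and 9.15 in wild type and 9.22 and 9.21 in null arrays of set 1. In set 2 the readings were 9.70 and 9.63 in wild type and 9.46 and 9.52 in null arrays. The null pair was above wild type in set 1 and below it in set 2. The difference over both sets was -0.050 ± 0.063 (SE; adjusted p = 0.821), and the other 3 probe sets gave 0.045 to 0.080 (adjusted p = 0.748 to 0.860).

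Within each set alone 0 of 29 probe sets passed, where 0.0933% of all probe sets passed in set 1 and 0.324% in set 2 (4 and 3 of the 29 at an unadjusted p under 0.05, against 8.67% and 11.1% of all). The interaction of genotype and set passed for 0 of 29 as well, against 0.0688% of all (4 at an unadjusted p under 0.05, against 7.54%). In 15 of 29 the genotype difference had the same sign in both sets, near the 55.6% of all probe sets. In 5 of 29 both null arrays lay above both wild type arrays within each set, against 6.67% of all probe sets, and these were 2 of Bcl2, 2 of Mcl1 and 1 of Bak1. In 0 of 29 they lay below in each set, against 5.25%.

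**Figure D3:**
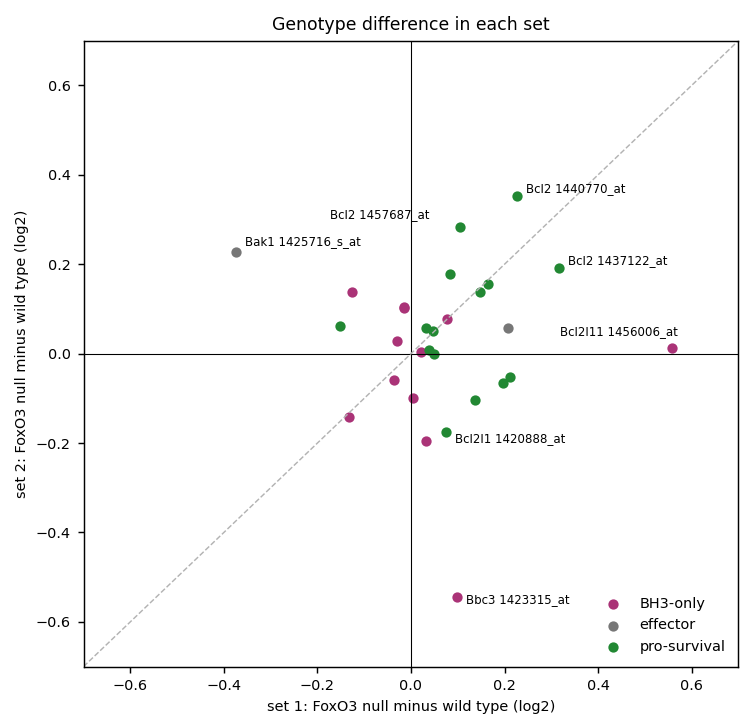
Log2 difference in set 1 (x axis) against set 2 (y axis) for the 29 probe sets, coloured by role, with the dashed line at equal values. Bbc3 lies at 0.099 and -0.55 and Bcl2l11 1456006_at at 0.56 and 0.013, while 3 labelled Bcl2 probe sets are positive on both axes.

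The sets moved the family more than the genotype did. In 16 of 29 probe sets (55.2%) set 2 differed from set 1, 9 higher and 7 lower, where 38.4% of all probe sets did. The set difference was larger than the genotype difference in 26 of 29, with a median size of 0.23 against 0.065. That comparison was not made over all probe sets. Set differences were common throughout the arrays (38.4% of all probe sets, against 0.802% for genotype), so this is not shown to be particular to the family. Bid was higher in set 2 by 0.68 at 1417045_at and Bcl2l1 by 0.40 at 1420888_at. Bcl2l11 was lower in set 2, with a difference of -0.52 at 1456005_a_at, and so was Bcl2, with -0.40 at 1457687_at. Myelin genes moved with the sets as well: Mbp, which encodes myelin basic protein, read 11.13 to 12.09 in set 1 and 13.72 to 13.95 in set 2, and its part in these shifts was not tested.

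Around the family, 75 of 86 listed genes of the cell death pathway were measured, each by its brightest probe set: 3 fell and 0 rose, against 1.12% of all genes, and 15 (20.0%) had an unadjusted p under 0.05, against 14.5%. One of the 3 is the mutated gene Foxo3 itself. All 3 were in the list of genes that regulate the family, where 3 of 21 passed. Besides Foxo3 these were Jun, the AP-1 subunit that induces Bim in neurons deprived of trophic support, and Ddit3, which encodes the stress factor CHOP. Jun read 10.49 and 10.40 in wild type and 10.02 and 10.11 in null arrays of set 1, and 11.06 and 10.80 against 10.47 and 10.60 in set 2. Both null arrays lay below both wild type arrays in each set, and Jun fell by 0.39 ± 0.069 (SE; adjusted p = 0.0325). Ddit3 read 9.02 and 9.13 in wild type and 8.68 and 8.60 in null arrays of set 1, and 8.69 and 8.52 against 8.41 and 8.12 in set 2. It too was lower in each set and fell by 0.38 ± 0.075 (adjusted p = 0.0489). For Jun 2 of 2 probe sets passed, and for Ddit3 1 of 2. Both calls are near the threshold: without 1 array, Jun missed it for each array but wild type 2_2 (adjusted p up to 0.124, without wild type 1_1), and Ddit3 for each but FoxO3 null 2_1 (up to 0.171, without wild type 2_1). With the Y-linked covariate, under which 0 of all probe sets passed in limma (2890 at an unadjusted p under 0.05), the difference was -0.24 for Jun (adjusted p = 0.846) and -0.55 for Ddit3 (adjusted p = 0.384).

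Among the other 11 measured members of the BCL2 family 0 passed, with a median difference of 0.034. Bnip3, a hypoxia-induced mitophagy receptor with a BH3-like part, had the smallest p (-0.69 ± 0.15 (SE), adjusted p = 0.0775), and Bcl2l12 gave 0.19 (adjusted p = 0.322). Bnip3 passed with a variance trend (adjusted p = 0.0109) and with a random block (adjusted p = 0.0236), but not on the means of each set and genotype (adjusted p = 0.157) or with no set term (adjusted p = 0.868). With the Y-linked covariate its difference was -1.22 (adjusted p = 0.222). Of 17 genes of the apoptosome, caspases and inhibitors of apoptosis 0 passed (median 0.0077). The smallest p-values there were those of Birc5, the mitotic survivin gene (0.20, adjusted p = 0.172), and Parp1, a DNA damage sensor that caspases cleave (0.12, adjusted p = 0.369).

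Of 11 death receptor genes 0 passed (median 0.049), with Casp8, the initiator caspase, at 0.14 and its adaptor Fadd at 0.084 (adjusted p = 0.551 and 0.574). In the list of p53 regulators and targets 0 of 15 passed by their brightest probe set (median 0.0089). Sesn1, a stress-induced regulator of mTORC1 that is also a FoxO target, gave -0.32 ± 0.071 (SE; adjusted p = 0.0872), and 2 of its 4 probe sets passed. This probe set passed with a variance trend (adjusted p = 0.0227) and a random block (adjusted p = 0.0225), not on means (adjusted p = 0.254), and its difference was -0.089 with the Y-linked covariate. Gadd45a, a DNA damage and FoxO target, gave -0.29 (adjusted p = 0.256).

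**Figure D4:**
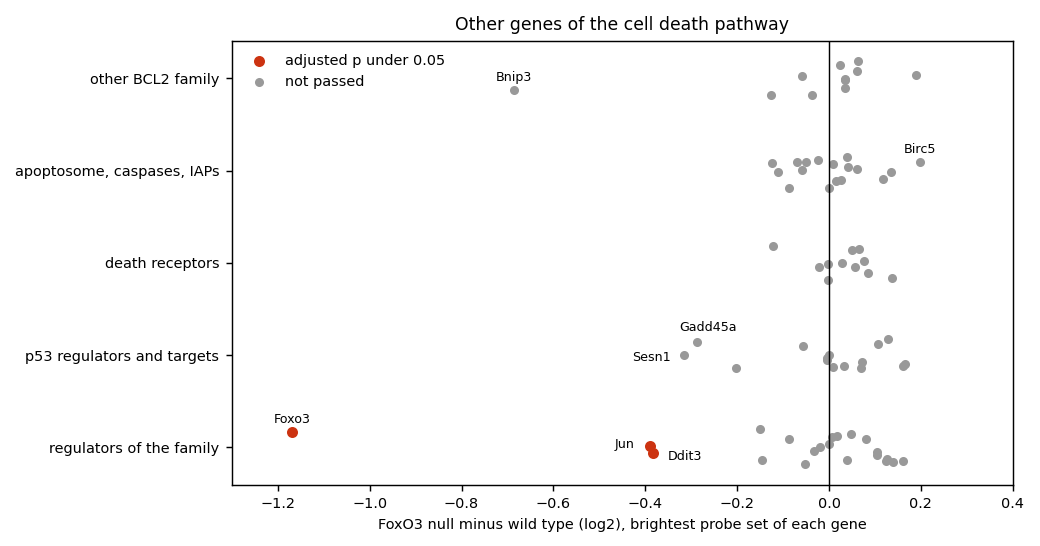
Log2 difference of the brightest probe set of each measured gene in 5 lists of the cell death pathway, 1 point per gene, spread vertically only for legibility. The 3 genes that passed, Foxo3, Jun and Ddit3, lie left of 0 among the regulators, and Bnip3 at -0.69 did not pass.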

How the data were processed

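The authors deposited log2 expression values, obtained by RMA as named per the submitters' processing notes (version not given in the sources used here). RMA subtracts background, makes the arrays' distributions alike and summarises each probe set, so dim differences are compressed and changes are relative to the other genes. The platform annotation gave the symbols (34945 with 1 symbol, 932 with several, 9160 with none), and those with several stood for no gene. Genotypes were compared on all 45037 probe sets that are no Affymetrix control with limma 3.58.1 in R 4.3.3 (lmFit, eBayes), set as an additive term, two-sided, Benjamini-Hochberg over all of them, passing at an adjusted p under 0.05. Scripts were tested on simulated data. Every member probe set is described. From each pathway list up to 3 passing genes, or, where fewer than 2 passed, the 2 with the smallest p, are named. Same-numbered arrays did not deviate together (correlation 0.074 in set 1 and -0.058 in set 2), so numbers were not used as pairs. Members and lists were chosen with earlier results of these data known.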

Additional observations from a re-analysis of the deposited data

Results flagged for a closer look

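Bak1 probe set 1425716_s_at was picked out by its signs and by 1 array. The null arrays (5.93 and 6.22) were below both wild type arrays (6.45 and 6.45) in set 1 and above them in set 2 (6.54 and 6.79 against 6.42 and 6.45). The set 2 minus set 1 difference of the genotype effect was 0.60 (limma interaction, adjusted p = 0.342). Wild type array 2_1, at 6.42, stood apart from the other 3 wild type arrays, the nearest at 6.45, in a group whose spread was only 0.017 (SD, n = 4). It was the 1 such array among 58 groups of 4 arrays examined. Chance alone flags about 1 in 20 groups of like arrays, a higher rate than was found here. Each group pools arrays of 2 sets, so that rate is only a rough guide.

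Bcl2l1 probe set 1420888_at also turned between the sets, with null above wild type in set 1 and below it in set 2. The difference between the sets was -0.25 (limma interaction, adjusted p = 0.628).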

How the results depend on the processing

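Under all alternatives but 1, 0 member probe sets passed; where set and genotype formed a random block 1 did, Bcl2 1437122_at. Of 585 member values under alternatives, 43 turned their sign, none of them called, and 11 of 29 probe sets never turned, among them Bcl2l11 1456005_a_at, 4 of Bcl2 and 4 of Mcl1. Over all probe sets 361 passed, against 3 with no set term, 138 with a replicate block (0 members; the numbers are no pairs), 42 in set 1, 146 in set 2, 825 with a variance trend, 0 with no moderation (limma, 5134 at an unadjusted p under 0.05), 39 with array means, 1354 with the random block, 0 with the Y-linked covariate (2890 unadjusted), 714 and 61 at thresholds of 0.1 and 0.01, and 83 (without wild type 1_1) to 271 without 1 array. Normalized again, set 1 gave 26 and set 2 237. Jun and Ddit3 missed the threshold with the replicate block (adjusted p = 0.0950 and 0.0588), with no set term, in each set alone, with no moderation and with array means. Causes were not tested. The number of arrays, 8, limits the precision.

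Signs turned as follows. In set 1 alone: Bcl2l11 1435449_at -0.13 and 1426334_a_at 0.033, Bbc3 0.099, Pmaip1 0.0044, Bid 1448560_at -0.015, Bad 1416582_a_at -0.014, Bcl2l1 1420888_at 0.075. In set 2 alone: Bcl2l11 1435448_at 0.028, Bak1 1425716_s_at 0.23, Bcl2 1443837_x_at -0.10, Bcl2l1 1420887_a_at -0.066 and 1426191_a_at -0.051, Mcl1 1437527_x_at -0.0018 and 1456381_x_at 0.062. Normalized again: Bcl2l11 1435449_at -0.0086. With the Y-linked covariate: Bcl2l11 1435449_at -0.083 and 1426334_a_at 0.26, Bbc3 0.34, Pmaip1 0.17, Bid 1417045_at 0.050 and 1447873_x_at -0.021, Bad 1416582_a_at -0.041 and 1416583_at 0.0094, Bcl2l1 1420888_at 0.15 and 1426050_at -0.14, and, outside the family, Gadd45a 0.13. Without 1 array the range was -0.018 to 0.028 for Bcl2l11 1435448_at, -0.042 to 0.076 for 1435449_at, -0.12 to 0.0068 for Pmaip1, -0.031 to 0.12 for Bid 1448560_at, -0.024 to 0.053 for 1447873_x_at, -0.18 to 0.045 for Bak1 1425716_s_at, -0.070 to 0.11 for Bcl2 1443837_x_at and -0.00065 to 0.057 for Mcl1 1437527_x_at.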
